A study of Homo sapiens with 6 samples.

Results

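The sialic acid binding immunoglobulin-like lectins, or Siglecs, were examined gene by gene in cultured Mec-1 cells. Mec-1 is an established B cell line derived from chronic lymphocytic leukaemia. The members were the 8 genes MAG, CD22, CD33, SIGLEC1, SIGLEC6, SIGLEC7, SIGLEC9 and SIGLEC10, and every array probe annotated to them was taken. This gave 11 of the 47323 probes on the array, for 7 of the 8 genes, where 20046 genes had a probe named in all. CD33 had no probe named here and has no value below. The cells of both kinds were described as constitutively positive for SLAMF1, the surface receptor also called CD150. The 3 arrays labelled SLAMF1 shRNA held RNA of a Mec-1 variant made with a pGFP-V-RS construct for a short hairpin RNA against SLAMF1, and the 3 labelled control shRNA held RNA of Mec-1 cells given a scrambled, non-effective hairpin. The submitters call the 3 samples of each variant biological replicates. Whether the variants are clones, and whether replicates were cultured separately, is not stated, so the p-values reflect only sample-to-sample spread within each variant.

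Siglecs are cell surface receptors whose outermost immunoglobulin domain binds sialic acid, the sugar that caps many glycan chains on neighbouring proteins and lipids. Most of them carry inhibitory tyrosine motifs in their cytoplasmic tail, which recruit the phosphatases encoded by PTPN6 and PTPN11 and dampen signals from activating receptors. On B cells CD22 is the best known of them and restrains the B cell receptor. MAG is known from myelin, where glial cells use it to contact axons, and SIGLEC1 (sialoadhesin) is a macrophage receptor. The CD33-related genes SIGLEC6, SIGLEC7, SIGLEC9 and SIGLEC10 form a gene cluster on chromosome 19 and are expressed mainly on blood leukocytes, SIGLEC7 chiefly on NK cells, SIGLEC9 on neutrophils and monocytes and SIGLEC10 on B cells and others.

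Between 17192 and 19586 probes per array were detected, that is, had a detection p-value under 0.05 against the negative control probes of the same array. Replicate 2 of the arrays labelled SLAMF1 shRNA stood apart. It correlated at 0.928 and 0.940 with the other arrays of its label across the tested probes, which correlated at 0.994 with each other. The targeted gene SLAMF1 had log2 levels of 8.70, 8.44 and 8.64 on the arrays labelled SLAMF1 shRNA, against 8.26, 8.38 and 8.01 on those labelled control. Its 1 probe was thus not lower under the silencing label (log2 fold change 0.38, SE 0.17, limma adjusted p = 0.171), and with array weights it was called higher (adjusted p = 0.00952). The position of this probe relative to the hairpin target is unknown here, and every direction given is that of the label. B cell markers were present: 10 of 12 had a tested probe, among them CD79A, CD79B, EBF1, BLK and MS4A1. Of these 10, 6 were called higher and 1 lower, where 11.9% of all genes tested were called higher and 10.6% lower. Their median log2 fold change was 0.97. The gene called lower, named after its value was seen, was BANK1 (-1.52 to -0.67 over 17 alternatives, called in all 17). The EBF1 call held in 9 of 17 alternatives.

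MAG and CD22, which lie side by side on chromosome 19 with 0 protein-coding genes between them, were both higher in the arrays labelled SLAMF1 shRNA. Fitted differences were 37.0-fold for MAG, whose control level was at background, and 5.15-fold for CD22, and without background correction they were 9.85-fold and 2.99-fold. None of the other measured members was called different. Of the 11 member probes, 4 passed the filter of a detection p-value under 0.05 on at least 3 of the 6 arrays (19073 of all probes, or 40.3%, passed), and these belonged to MAG (2 probes), CD22 and SIGLEC6. In the fit across all 19073 probes, 3 of these 4 probes were called higher and 0 lower, where 18.7% of all tested probes were called, 9.24% higher and 9.42% lower. Earlier results had shown the MAG and CD22 differences before the members were chosen, so this count is a description. In bulk RNA a higher level per cell and a larger share of expressing cells cannot be told apart.

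**Figure D1:**
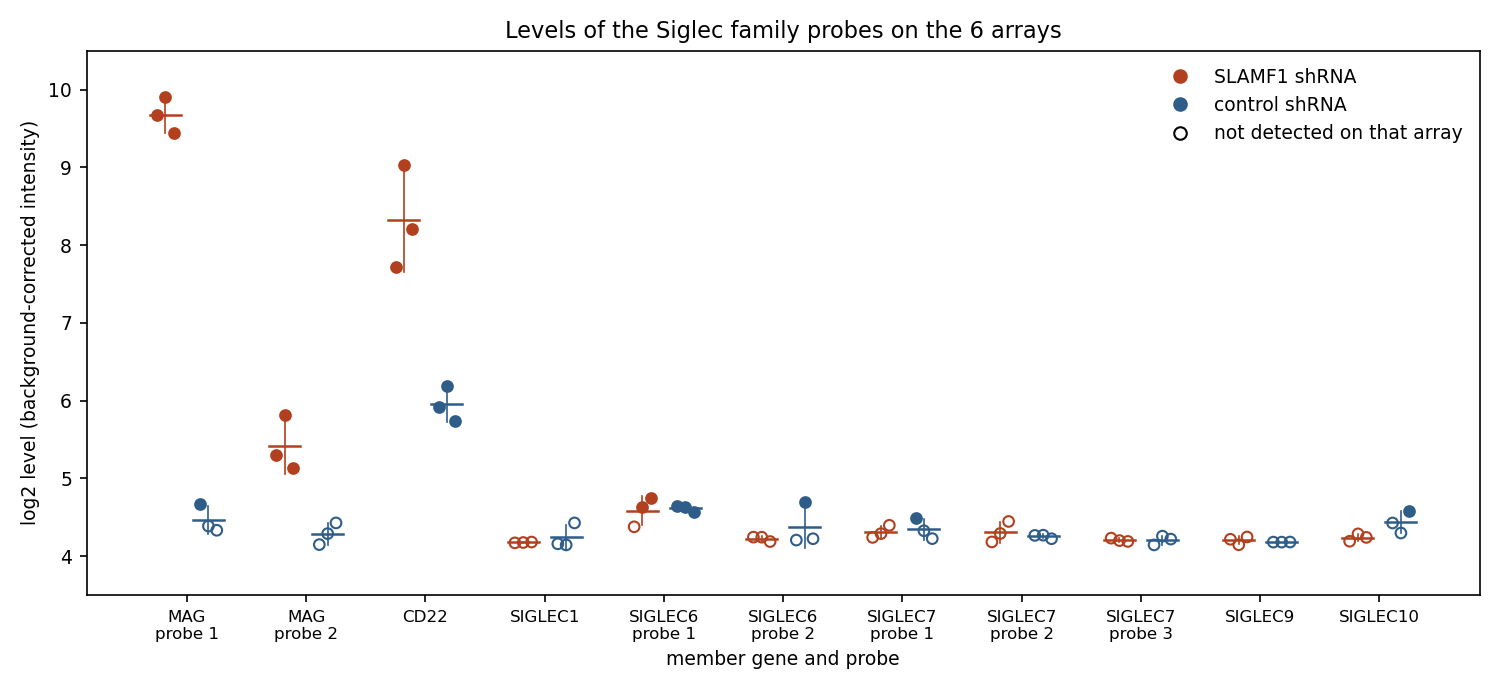
Log2 levels of the 11 member probes (vertical axis) on the 3 arrays labelled SLAMF1 shRNA (left in each pair) and the 3 labelled control shRNA (right). Points are arrays, open where the probe was not detected, horizontal bars are means and vertical bars SDs. The MAG and CD22 probes separate the groups, while the probes of the other members lie between 4.14 and 4.74 throughout. Within that range the SIGLEC10 probe also does not overlap, with lower values under the SLAMF1 shRNA label.

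The probe of MAG with the higher signal (probe 1, ILMN_1803773) gave raw intensities of 927, 783 and 745 in the arrays labelled SLAMF1 shRNA, against 101, 87.5 and 86.5 in the control arrays. All 3 arrays labelled SLAMF1 shRNA detected it, but only control replicate 1 did among the controls, with a detection p-value of 0.0169. After background correction and normalization its log2 levels were 9.67, 9.91 and 9.44 against 4.66, 4.39 and 4.33, so the groups lay far apart and each spread little. The means were 9.67 ± 0.24 in the arrays labelled SLAMF1 shRNA and 4.46 ± 0.18 in the control arrays (SD, n = 3 each). The log2 fold change was 5.21 (95% interval 4.77 to 5.65, SE 0.19, limma adjusted p = 9.92e-06), and the probe was called in each of 16 alternatives that tested it. Since 2 of the 3 control arrays did not detect the probe, the size is that of a difference from background, and the log2 value ran from 3.30 without background correction to 5.37 with cyclic loess.

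The second probe of MAG (ILMN_2380181), which the platform annotation places on the same transcript record, was dimmer and moved less. Its raw intensities were 111, 104 and 105 in the arrays labelled SLAMF1 shRNA, against 84.1, 85.2 and 88.6 in the control arrays, none of which detected it. Its log2 levels were 5.30, 5.82 and 5.13 against 4.15, 4.29 and 4.43, again without overlap. Because the control level is only a bound, the difference is given as at least 1.91-fold on the background-corrected scale (fitted log2 fold change 1.13, SE 0.22, limma adjusted p = 0.0112). Without background correction it was 1.32-fold, and every such bound below holds on the background-corrected scale only. Leaving out control replicate 1 or control replicate 2 ended the call (adjusted p = 0.0546 and 0.0517). Both MAG probes would have passed the filter through the arrays labelled SLAMF1 shRNA alone, and the position of each probe in the transcript is not known here.

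CD22 differed in kind from MAG, since its 1 probe was detected on all 6 arrays. Raw intensities were 300.5, 435 and 366 in the arrays labelled SLAMF1 shRNA, against 149, 139.7 and 124 in the control arrays. On the log2 scale these were levels of 7.72, 9.03 and 8.20 against 5.92, 6.19 and 5.74. The lowest array labelled SLAMF1 shRNA was thus above the highest control array, and replicate 2, the array that stood apart, gave the highest CD22 level. Means were 8.32 ± 0.66 and 5.95 ± 0.23 (SD, n = 3 each) for the SLAMF1 shRNA and control labels. The log2 fold change of 2.37 (SE 0.33, limma adjusted p = 0.00291, 95% interval 1.61 to 3.12) was larger than the spread between replicates. It was 2.01 without replicate 2 of the arrays labelled SLAMF1 shRNA, and the call held in all 17 alternatives. Arrays that did not overlap in the direction of a higher level under the SLAMF1 shRNA label were not rare in these data: 19.6% of all tested probes showed this and 41.4% did not overlap in either direction, as did the 3 probes of MAG and CD22.

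The promoters of these neighbours are shown because both genes were higher together; both lie on the forward strand, and each stretch holds 250 bases before and 50 after the annotated start (RefSeq, GRCh38.p14; MAG at chr19:35291911-35292210, CD22 at chr19:35328937-35329236). Capitals mark the E box, CANNTG, where N is any base, on either strand.
MAG: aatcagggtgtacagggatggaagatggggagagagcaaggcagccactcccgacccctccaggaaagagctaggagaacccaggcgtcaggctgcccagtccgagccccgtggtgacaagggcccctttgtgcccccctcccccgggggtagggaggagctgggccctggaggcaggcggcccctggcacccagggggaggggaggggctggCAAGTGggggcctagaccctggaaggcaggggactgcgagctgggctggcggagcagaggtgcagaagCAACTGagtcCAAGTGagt
CD22: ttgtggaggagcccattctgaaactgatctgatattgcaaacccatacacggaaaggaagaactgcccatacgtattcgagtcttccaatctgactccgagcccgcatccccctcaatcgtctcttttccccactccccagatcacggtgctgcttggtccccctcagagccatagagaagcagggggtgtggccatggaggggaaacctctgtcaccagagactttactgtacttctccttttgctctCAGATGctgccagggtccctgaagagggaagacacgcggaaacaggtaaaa
The MAG stretch held 3 E boxes and the CD22 stretch 1, and 68.7% of 35116 promoters of that length held at least 1. Neither held the PU box core GAGGAA (27.9% of promoters), the TATA box TATAAA (11.5%), the GC box GGGCGG (45.0%) or the octamer ATGCAAAT (1.77%), searched on both strands with overlapping matches counted. GC content was 67.7% for MAG and 53.0% for CD22, against a median of 58.67% over all promoters, with 8 and 9 CpG dinucleotides against a median of 14. The longest run of identical bases between the stretches of MAG and CD22 was 9 bases. A match or its absence in such a window is a description only.

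SIGLEC6, which encodes a receptor of placental trophoblast, mast cells and some B cells, was the third member with a tested probe. Its probe 1 (ILMN_1685630) gave raw intensities of 88.6, 88.0 and 95.6 in the arrays labelled SLAMF1 shRNA, against 100.6, 92.0 and 91.4 in the control arrays. Log2 levels were 4.38, 4.64 and 4.74 against 4.65, 4.63 and 4.57, and the groups overlapped. No difference was called (log2 fold change -0.03, SE 0.17, limma adjusted p = 0.924), and the 95% interval of -0.41 to 0.35 is that of a probe close to background, where changes are compressed. Its second probe was detected on 1 array, control replicate 2, at a log2 level of 4.69.

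The remaining 7 member probes, those of SIGLEC1, SIGLEC7 (3 probes), SIGLEC9, SIGLEC10 and the second SIGLEC6 probe, did not pass the filter. Of their 42 values on the 6 arrays 3 had a detection p-value under 0.05, all on control arrays: a SIGLEC7 probe on control replicate 1, the second SIGLEC6 probe on control replicate 2 and SIGLEC10 on control replicate 3. Raw intensities of these probes ran from 77.8 to 96.7 and log2 levels from 4.14 to 4.69. The SIGLEC10 probe, of interest because this receptor also inhibits B cell signalling, read 4.19, 4.29 and 4.24 in the arrays labelled SLAMF1 shRNA, against 4.43, 4.30 and 4.58 in the control arrays. The SIGLEC1 probe read 4.17, 4.17 and 4.18 against 4.16, 4.14 and 4.43, and the SIGLEC9 probe 4.22, 4.15 and 4.25 against 4.18, 4.18 and 4.18. The groups overlapped for SIGLEC1 and SIGLEC9, and SIGLEC10 read lower on all 3 arrays labelled SLAMF1 shRNA than on the control arrays, all close to background and not tested. A transcript below the detection limit of its probe is not shown to be absent.

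Among the CD33-related genes, the promoters of SIGLEC9 and SIGLEC7 shared a run of 40 identical bases, set in capitals below with the 60 bases before it (RefSeq, GRCh38.p14, forward strand; SIGLEC9 at chr19:51124830-51124929, SIGLEC7 at chr19:51142225-51142324).
SIGLEC9: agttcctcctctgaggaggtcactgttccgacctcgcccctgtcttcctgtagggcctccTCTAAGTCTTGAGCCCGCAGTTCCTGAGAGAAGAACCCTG
SIGLEC7: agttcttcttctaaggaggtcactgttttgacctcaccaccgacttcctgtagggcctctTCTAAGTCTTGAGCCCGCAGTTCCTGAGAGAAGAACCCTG
The run fills bases 261 to 300 of the SIGLEC9 window, after the start on which that window is built and up to its end. In the SIGLEC7 window it fills bases 77 to 116, before the start. CD33 and SIGLEC6 shared a run of 24 bases, the next longest among the 7 members with a promoter listed. No run between MAG or CD22 and any other member was over 11 bases. Probes of such related genes may detect more than 1 of them, so values of SIGLEC7 and SIGLEC9 are uncertain in that respect. Probe sequences were not available here, so this was not tested, and the shared run does not show it.

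The rest of the family gave no signal to test. The 7 other Siglec genes on the array, SIGLEC5, SIGLEC8, SIGLEC11, SIGLEC12, SIGLEC14, SIGLEC15 and SIGLEC16, were covered by 10 probes, of which 0 passed the filter and 7 were detected on no array. Summed over these probes, the background-corrected intensity was 191 to 195 in the arrays labelled SLAMF1 shRNA and 192 to 198 in the control arrays. MAG and CD22 were therefore the only genes of the family, among those with a probe named here, with a called difference or with a probe detected on every array labelled SLAMF1 shRNA.

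Whether genes around MAG and CD22 were higher too was examined in the 10 protein-coding genes on each side. Of these 20, 9 had a tested probe, 3 were called higher and 0 lower, where 22.5% of all 10832 genes tested were called, 11.9% higher and 10.6% lower, 1 probe standing for each gene. The 3 were USF2, a transcription factor gene (log2 fold change 1.42, SE 0.30, limma adjusted p = 0.0168), TMEM147 (1.10, SE 0.28, adjusted p = 0.0328) and DMKN (0.75, SE 0.18, adjusted p = 0.0260). The product of USF2 binds E boxes, but a link to those marked above was not tested. The other DMKN probes gave 1.44 and 1.29, and the other USF2 probes gave 1.18 and 0.39. The median over the 9 neighbours was 0.34, against 0.02 over all genes tested, and 7 of the 9 values were positive. HAMP, FFAR1 and FFAR3, the genes closest to the pair, had no probe that passed. Compared with these neighbours, MAG (5.21) and CD22 (2.37) had the larger values. In the cluster of CD33-related Siglecs, 5 of 21 neighbours were tested, and 3 were called higher and 0 lower: NKG7, a gene of cytotoxic granules (1.98, SE 0.42, adjusted p = 0.0162), ETFB, of mitochondrial electron transfer (0.91, SE 0.24, adjusted p = 0.0372), and the zinc finger gene ZNF175 (0.74, SE 0.20, adjusted p = 0.0382). At an unadjusted p under 0.05 also 0 neighbours of either group were lower by limma. The 6 genes called near the members were all short of the threshold without control replicate 2 (log2 fold changes of 0.71 to 2.01) or without control replicate 3 (0.66 to 1.88), and 2 were called without control replicate 1 or without replicate 3 of the arrays labelled SLAMF1 shRNA. Probes called higher over the whole table numbered 889 without control replicate 2 and 738 without control replicate 3, against 1762 with all arrays.

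**Figure D2:**
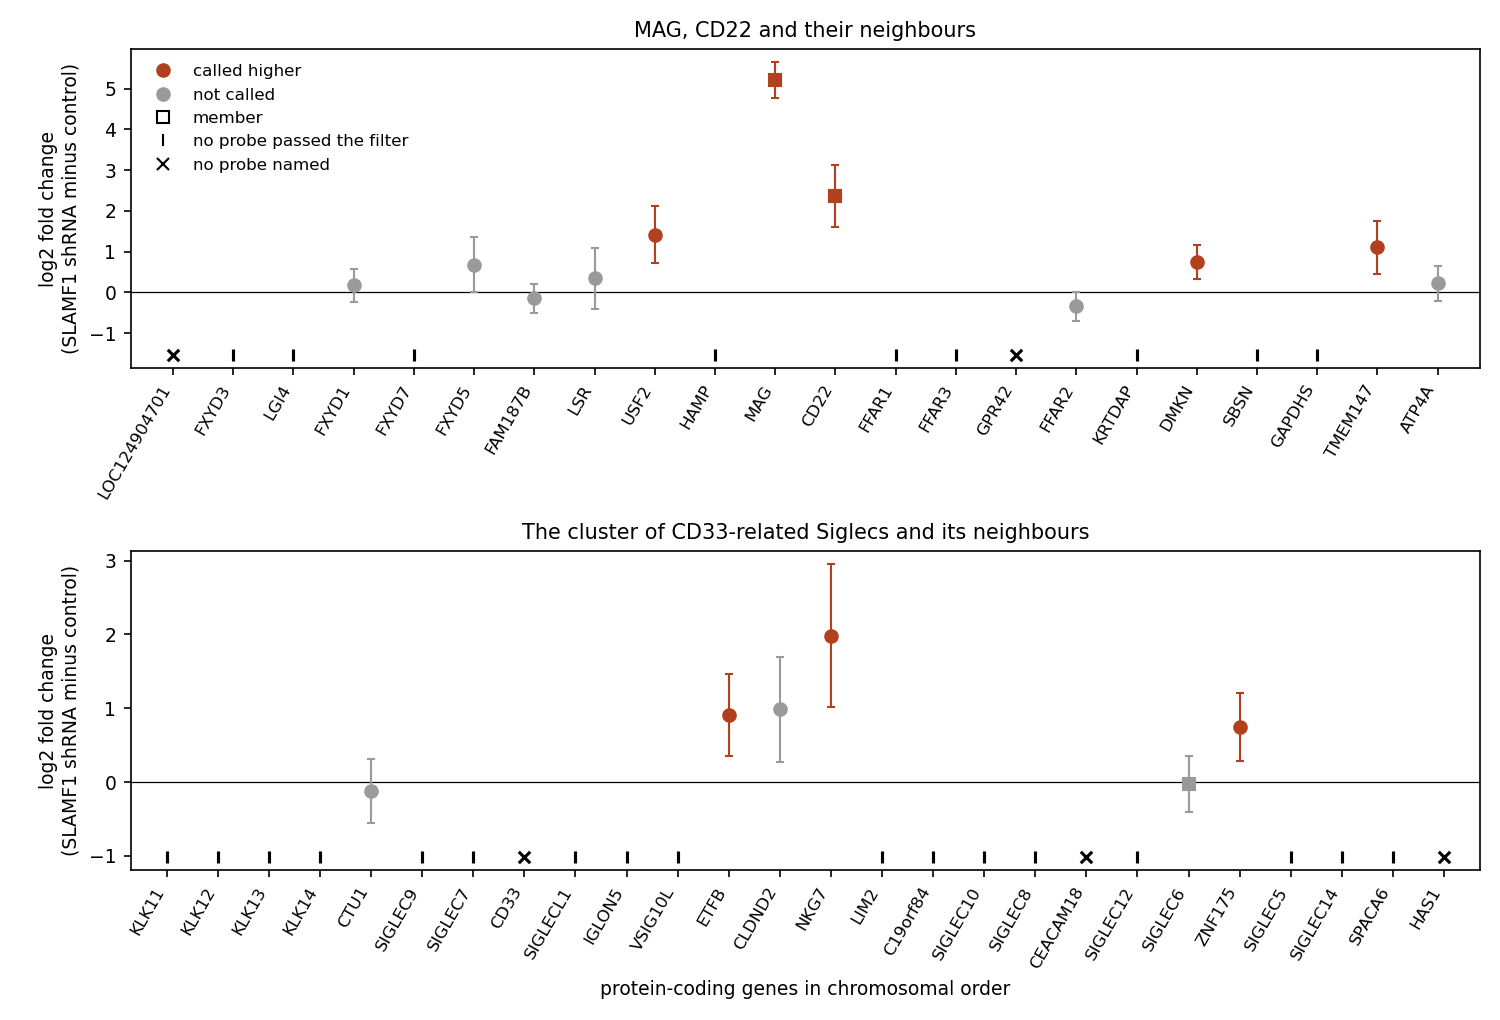
Log2 fold change (SLAMF1 shRNA minus control, vertical axis, with 95% intervals) of protein-coding genes in their chromosomal order around MAG and CD22 (top) and across the cluster of CD33-related Siglecs (bottom). Squares are members, orange marks called genes, and marks along the bottom show genes without a tested probe; MAG at 5.21 and CD22 at 2.37 stand above their tested neighbours, of which USF2 is the highest at 1.42.

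Of 20 sialyltransferases, the enzymes that attach sialic acid to glycans and so build Siglec ligands, 10 had a tested probe. Of these 4 were called higher and 2 lower, where 11.9% of all genes tested were higher and 10.6% lower, and the median log2 fold change was 0.72 (0.02 over all genes tested). ST3GAL1, which caps O-linked chains, had log2 levels of 8.13, 9.24 and 8.57 in the arrays labelled SLAMF1 shRNA, against 5.01, 5.43 and 5.18 in the control arrays (log2 fold change 3.44, SE 0.29, limma adjusted p = 0.000350). ST6GALNAC3 rose by 2.21 (SE 0.16, adjusted p = 0.000164) and ST6GALNAC4 by 2.24 (SE 0.42, adjusted p = 0.0108), both of which add sialic acid to N-acetylgalactosamine. Second probes of ST3GAL1 and ST6GALNAC3, not detected in the control arrays, were at least 5.32-fold and 1.79-fold higher. Without background correction the main probes of ST3GAL1 and ST6GALNAC3 gave log2 fold changes of 2.16 and 0.99. The third ST6GALNAC4 probe gave 0.55. Leaving out control replicate 1 or 3 ended the ST6GALNAC4 call (adjusted p = 0.0580 and 0.0512). The other called members were chosen after their values were seen. They were ST8SIA4, a polysialyltransferase gene (0.78, with another probe at -0.70), ST3GAL6, which was at least 2.34-fold lower and undetected in every array labelled SLAMF1 shRNA (log2 fold change -0.47 without background correction), and ST3GAL5, which makes the ganglioside GM3 (-0.72). ST8SIA4 was not called with median centring (0.55, adjusted p = 0.161) or without control replicate 3 (adjusted p = 0.0625), and ST3GAL5 was not called in any fit without 1 array except that without replicate 2 of the arrays labelled SLAMF1 shRNA (adjusted p up to 0.109). ST6GAL1, whose product makes the linkage that CD22 prefers, was detected on all 6 arrays. Its main probe was not called (log2 fold change 0.67, SE 0.34, limma adjusted p = 0.215). Log2 levels were 11.53, 10.31 and 11.52 in the arrays labelled SLAMF1 shRNA, against 10.27, 10.73 and 10.36 in the control arrays. The other ST6GAL1 probes gave 0.997 and 0.26 and were not called (adjusted p = 0.0953 and 0.819). For each ST6GAL1 probe, replicates 1 and 3 of the arrays labelled SLAMF1 shRNA read above every control array and replicate 2 did not.

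Of 14 genes of sialic acid synthesis and turnover, 9 had a tested probe and limma called 0 higher and 0 lower, with 1 and 1 at an unadjusted p under 0.05. Over all genes tested 11.9% were called higher and 10.6% lower. GNE, the enzyme that starts sialic acid synthesis, gave 0.15 (SE 0.21) and CMAS, which activates the sugar, -0.20 (SE 0.23). Of 13 known Siglec ligands and MAG receptors, 5 were tested, 0 were called higher and 2 lower, beside the same 11.9% and 10.6% of all genes. These 2 carry glycans bound by SIGLEC10: CD52, the target of alemtuzumab (log2 fold change -3.04, SE 0.31, adjusted p = 0.000739), with levels of 5.05, 6.13 and 5.16 in the arrays labelled SLAMF1 shRNA, against 8.29, 8.77 and 8.41 in the control arrays, and CD24 (-1.09, SE 0.15, adjusted p = 0.00328). Without background correction CD52 gave -1.91 and CD24 -0.37. PTPRC, which encodes the CD22 ligand CD45, gave 0.05 (SE 0.36). Its probe was undetected on replicate 2 of the arrays labelled SLAMF1 shRNA (log2 level 4.25, against 5.35 and 5.57 on the others of that label). The other tested PTPRC probes gave 0.37 and 0.30 and were not called. None of the neuronal MAG receptor genes RTN4R, RTN4RL1 and RTN4RL2 had a tested probe.

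Of 15 signalling partners of Siglecs, 14 were tested, 1 was called higher and 2 lower, with a median of -0.19, a share called near the 22.5% of all genes tested. PTPN6 gave 0.74 (SE 0.33, adjusted p = 0.160) and PTPN11 -0.35 (SE 0.18, adjusted p = 0.227), and LYN, the kinase that phosphorylates CD22, gave -0.73 (SE 0.27, adjusted p = 0.102). SYK, the kinase downstream of the B cell receptor, fell by 1.62 on the log2 scale (SE 0.30, adjusted p = 0.0103). Of the adaptors for activating receptors, HCST was higher (1.40, SE 0.32, adjusted p = 0.0212) and TYROBP at least 1.23-fold lower, being undetected in the arrays labelled SLAMF1 shRNA. Without background correction TYROBP gave -0.20 and was not called (adjusted p = 0.0563). The HCST call was lost without any 1 control array (adjusted p up to 0.0957). The TYROBP call was lost without any 1 control array or replicate 1 or 3 of the arrays labelled SLAMF1 shRNA (adjusted p of 0.0824 or above). Of 8 genes of the receptor that CD22 restrains and its coreceptor, 5 were tested, with a median of 1.07. Of these, 2 were called higher and 0 lower, where 11.9% of all genes tested were called higher and 10.6% lower. At an unadjusted p under 0.05 limma gave 3 higher and 1 lower. CD79A (1.93, SE 0.17) and CD79B (1.83, SE 0.23) were called higher. CD81 (-0.43) and CR2 (0.01) of the coreceptor were not called, nor was the remaining tested gene, whose value is the median of 1.07.

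Other inhibitory receptors known from B cells were set beside CD22. Of 18, 11 were tested, 3 were called higher and 1 lower, where 11.9% of all genes tested were called higher and 10.6% lower. The list median was 0.46. CEACAM1, an adhesion receptor with inhibitory motifs, had log2 levels of 8.25, 8.16 and 8.30 in the arrays labelled SLAMF1 shRNA and was undetected in all control arrays, which makes it at least 13.5-fold higher, or 4.55-fold higher without background correction. Its other probes were at least 5.11-fold and 2.03-fold higher. FCRL4, an Fc receptor-like gene of memory B cells, was likewise undetected in the control arrays and at least 4.11-fold higher, or 1.94-fold higher without background correction. PILRA was lower (log2 fold change -1.31, SE 0.30, adjusted p = 0.0227), its other probes gave -0.59 and -0.17, and the call was lost without any 1 control array (adjusted p up to 0.0760). FCRL5, named after its value was seen, gave 0.84 (SE 0.17), with another probe at 0.07, and was not called with control replicate 3 left out (adjusted p = 0.0738). FCGR2B, the inhibitory Fc receptor (0.13, SE 0.17), and CD72 (0.46, SE 0.24) were not called.

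**Figure D3:**
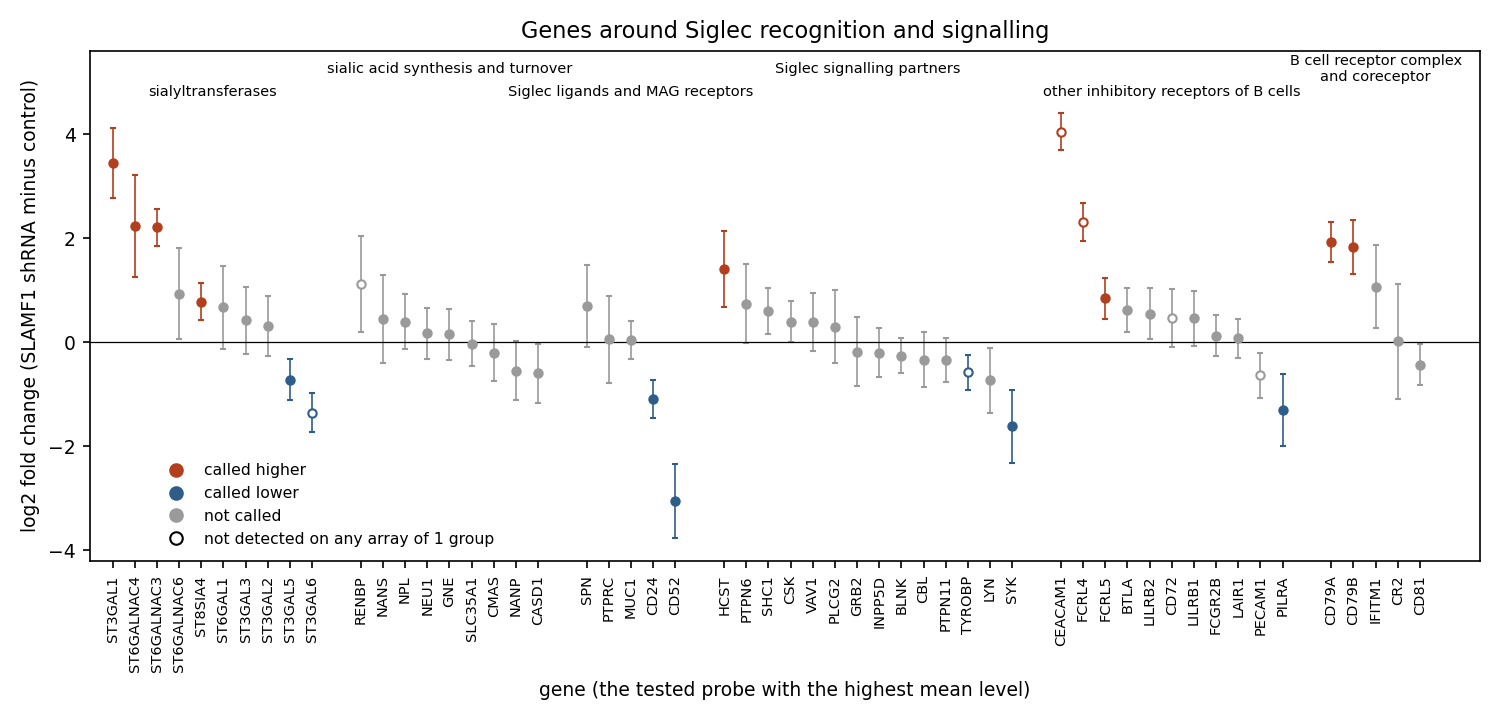
Log2 fold change (SLAMF1 shRNA minus control, vertical axis, with 95% intervals) of the tested genes of 6 lists around Siglec recognition and signalling, 1 probe per gene. Orange marks genes called higher, blue genes called lower and grey the rest; open symbols are genes not detected on any array of 1 group, whose fitted value is not a bound. ST3GAL1 and CEACAM1 are the highest and CD52 is the lowest.

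Since MAG marks myelin, SIGLEC1 macrophages and SIGLEC7 NK cells, markers of these cells were read beside them. Over all genes tested 11.9% were called higher and 10.6% lower, the shares to set beside each count below. Of 13 oligodendrocyte and myelin markers 2 were tested and 0 called by limma in either direction, with 0 higher and 1 lower at an unadjusted p under 0.05. MOG, SOX10, OLIG1, OLIG2, ERMN, CLDN11, OPALIN, MYRF and CNP were detected on no array. The summed background-corrected intensity of the list was 905 to 1360 in the arrays labelled SLAMF1 shRNA, against 1507 to 2485 in the control arrays. Of the 21 probes summed 14 were detected on no array, so the sum does not show a change across the list. MBP, which lymphocytes also transcribe, gave a log2 fold change of -1.12 (SE 0.32). Of 14 monocyte and macrophage markers 4 were tested and 1 was higher, CSF1R, at least 1.53-fold (log2 fold change 0.27 without background correction), while MARCO, MRC1, C1QB and MPO were detected on no array. Without control replicate 2 or 3 CSF1R was not called (adjusted p = 0.0533 and 0.0520). The list summed to 561 to 789 against 578 to 594 in the control arrays. Of 12 T and NK cell markers 4 were tested and 1 was higher, NKG7 as above. Its call was lost without any 1 control array (adjusted p up to 0.0799) and held in 9 of 16 alternatives. Without background correction NKG7 gave a log2 fold change of 0.87 and was not called (adjusted p = 0.0894). CD3D, CD3E, CD4, CD8A and KLRD1 were detected on no array, and the list summed to 520 to 690 against 475 to 490. The part of such cells in the results was not tested.

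The genes whose pattern over the 6 arrays was most like MAG, by the root mean square difference of log2 levels after each probe's mean was subtracted, were MFGE8 (0.18), TEX19 (0.26) and SNORD13 (0.30) among 10673 candidate genes. They were higher by log2 fold changes of 5.05, 5.13 and 4.81. Those most like CD22 were TMEM156 (0.12), DTX1 (0.15) and SESN2 (0.16), with log2 fold changes of 2.35, 2.26 and 2.58. Leaving out control replicate 1 or 3 ended the DTX1 call (adjusted p = 0.0517 and 0.0554). None of these 6 genes lies on chromosome 19. The candidates left out the members, genes of chromosome Y and genes with provisional or open reading frame symbols. With 6 arrays in 2 sets, likeness mostly reflects the size of the difference between the labels.

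**Figure D4:**
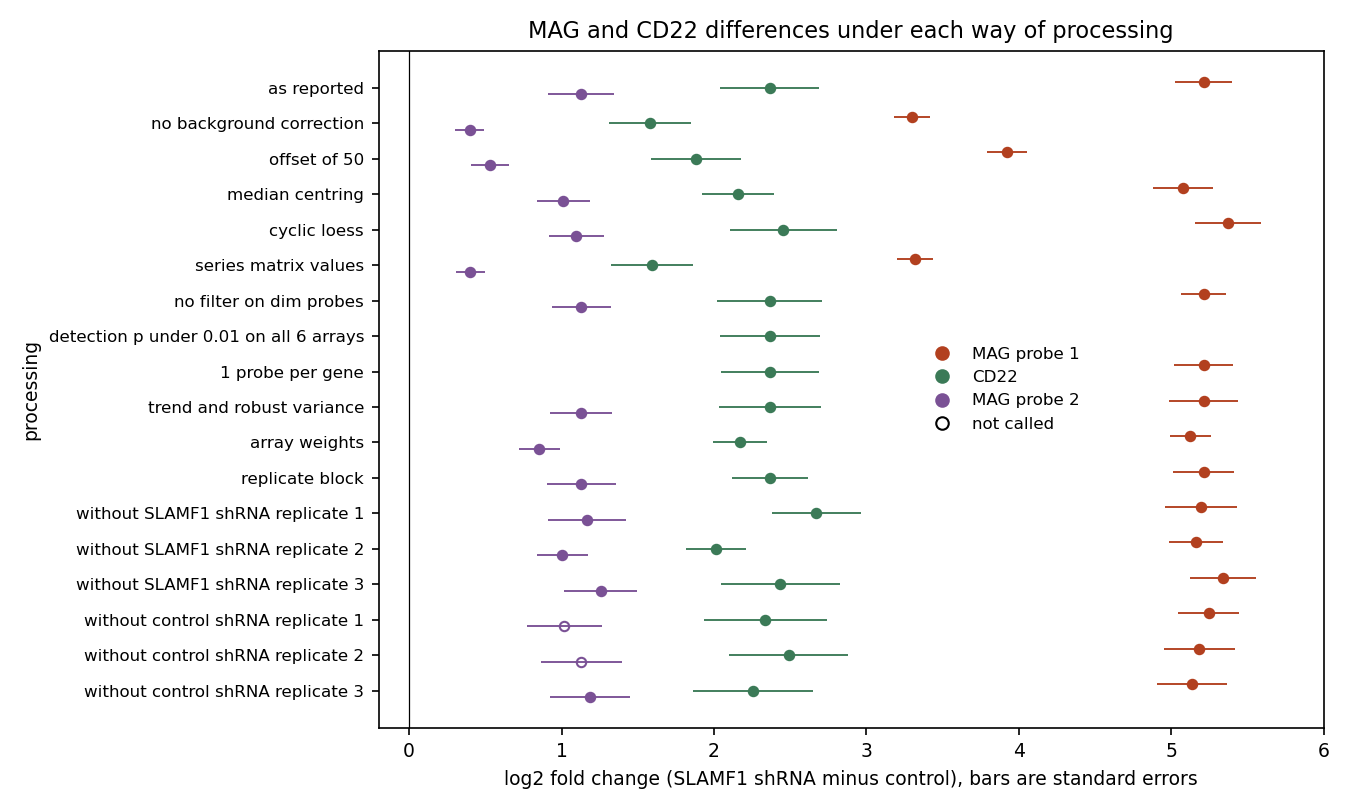
Log2 fold change (SLAMF1 shRNA minus control, horizontal axis, bars are standard errors) of both MAG probes and CD22 as reported and under each alternative (vertical axis). Open symbols were not called. The fitted values of MAG probe 1 lie between 3.30 and 5.37 and those of CD22 between 1.58 and 2.67, and the 2 settings without background correction give the lowest values for all 3 probes.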

How the data were processed

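Gene expression was measured on Illumina beadchips in 6 samples. The deposited values analysed were probe intensities without background subtraction, exported from GenomeStudio per the submitters' processing notes (version and genome build not given in the sources used here), each with a detection p-value deposited beside it per the file headers. The second deposited table holds intensity values that lay within 1% of the quantile-normalized signals in 100% of cases and served as an alternative.

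Of 47323 probes 2 had no value. Names came from the platform annotation, updated by gene identifier for 30074 probes against RefSeq (GRCh38.p14); 30113 probes had 1 symbol, 8 several and 17202 are unnamed here. In limma 3.58.1 (R 4.3.3), nec corrected the background (offset 16), followed by log2 transformation and quantile normalization. Fold changes are on this scale, which understates changes of dim probes. Every probe detected (p under 0.05) on at least 3 arrays was fitted separately (lmFit, eBayes, no covariate), with Benjamini-Hochberg adjustment over 19073 probes and a threshold of 0.05. For lists and neighbours the probe with the highest mean level stands for a gene. A probe detected on no array of 1 group gets a bound: the brighter group's mean is set against the dimmer arrays' lowest detected signal, or the probe's own signal where that is higher. The fit was tested on simulated data. All 6 arrays lay on 1 chip, with each label in neighbouring positions, so position and label cannot be told apart; 3 arrays per label limit the precision.

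Members and lists were chosen with earlier results of these data known. The genes named are the members, SLAMF1, up to 3 genes of each list with the largest change past the threshold, called neighbours and the 3 genes most like MAG and CD22; others are said to be chosen after their values were seen or are given as uncalled values for their role. The settings varied were the background step (none, or an offset of 50), normalization (median centring or cyclic loess), the second table, the filter (none, or detection p under 0.01 on all 6 arrays), 1 probe per gene, trend and robust variance, array weights (gene-by-gene method), a replicate block, and each array left out in turn with the same probes tested. Figures used Python and matplotlib.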

Additional observations from a re-analysis of the deposited data

How the results depend on the processing

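The MAG probe 1 and CD22 calls held in every alternative that tested them, 16 and 17 in all. The filter of a detection p under 0.01 on all 6 arrays removes both MAG probes and SIGLEC6, and the fit with 1 probe per gene leaves out MAG probe 2. MAG probe 2 ranged from 1.01 to 1.26 over the fits without 1 array, and SIGLEC6, never called, from -0.11 to 0.07. Median centring moved the median log2 fold change of all probes from -0.01 to -0.14, and MAG probe 1 and CD22 were then 5.08 and 2.16. SLAMF1 was called only with array weights, at 0.49.

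Counts moved more, and the cause was not tested. Probes called higher (1762) numbered 969 with median centring, 3958 with array weights and 738 to 2903 without 1 array. Probes called lower (1796) numbered 1139 with detection p under 0.01 on all 6 arrays, where fewer probes are tested, 4301 with array weights and 731 to 2953 without 1 array. List genes called higher (16) numbered 10 with that stricter filter, 31 with array weights and 8 to 24 without 1 array. Those called lower (8) numbered 13 with trend and robust variance, 18 with array weights and 5 to 13 without 1 array. The 6 neighbours called higher became 2 with no background correction, 3 with median centring, 2 with the second table, 1 with no filter, 2 with the replicate block and 0 to 7 without 1 array, and array weights called 1 lower. Array weights gave replicate 2 of the arrays labelled SLAMF1 shRNA a weight of 0.121.

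Deviations from the label means correlated at -0.22, -0.13 and 0.23 between same-numbered arrays of the 2 labels. Differently numbered arrays gave -0.29 to 0.27, so no pairing by number was seen. With 3 arrays per label this cannot tell whether same-numbered samples were handled together. With the replicate block MAG probe 1, MAG probe 2 and CD22 kept their calls (adjusted p = 0.000656, 0.0325 and 0.00656), and 1232 probes were higher and 1247 lower. For the 7 member probes that did not pass the filter, signal near background limits what can be seen.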
